A study of Homo sapiens with 12 samples.

Results

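hsa-mir-28 and hsa-mir-151a are 2 human miRNA hairpins annotated as derived from LINE2 repeats, and their 4 mature arms, hsa-miR-28-5p, hsa-miR-28-3p, hsa-miR-151a-5p and hsa-miR-151a-3p, were followed through 12 small RNA libraries. The arms were taken by hairpin name from the table of mature miRNA reads. They are 4 of the 1277 mature miRNAs left after repeated lines were collapsed, and their hairpins are 2 of the 978 in the table. None of the 4 names stood under more than 1 hairpin. Every library came from HCT116, a human colorectal carcinoma line, with DROSHA knocked out. Per the labels, all cells received 4.5 µg of the plasmid pXC-NLS-DG4 together with a pCK plasmid. That plasmid coded for DROSHA without its belt (belt deletion), for the mutant m4 or for wild-type DROSHA, at 4.5 µg, or it was empty. Each of the 4 groups had 3 libraries. The labels do not say what m4 alters, what the DG4 plasmid codes for, or whether repeats were separate cultures, so p-values measure the spread between these libraries, which may be technical. DROSHA was supplied from plasmids, so its amount need not match that of the parental line, and it was not measured here.

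DROSHA is the nuclear RNase III enzyme that, with its partner DGCR8, cuts primary miRNA transcripts near the base of a hairpin stem. The released hairpin is cut by DICER into a duplex, from which either the 5p or the 3p arm is loaded into an Argonaute protein, and the arm that is kept depends in part on where the cuts fell. The belt is a stretch of DROSHA that contacts the RNA near the base of the stem. miR-28 lies in an intron of LPP, a gene for a focal adhesion protein, and its 5p and 3p arms have been reported to act differently in colorectal cancer cells. miR-151a lies in an intron of PTK2, the gene for focal adhesion kinase, and has been studied for its part in tumour cell migration. The 5p arms of both are known as related sequences that matured from LINE2 elements; this relation and the repeat origin are background and were not checked here.

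Of the 4 members, only hsa-miR-28-3p has its sequence reported here, from RefSeq (GRCh38.p14). It is shown with 3 miRNAs that the results below set beside it, hsa-miR-374a-3p of the LINE2 list and the pair hsa-miR-148a-3p and hsa-miR-148b-3p. Capitals mark the seed, bases 2 to 8, the stretch that pairs with target transcripts.
hsa-miR-28-3p: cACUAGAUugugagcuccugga
hsa-miR-374a-3p: cUUAUCAGauuguauuguaauu
hsa-miR-148a-3p: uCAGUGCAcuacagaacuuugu
hsa-miR-148b-3p: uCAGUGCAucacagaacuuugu
The mature hsa-miR-28-3p is 22 nt long and lies at chr3:188688834-188688855 on the plus strand. It fills bases 54 to 75 of the 86 bp gene MIR28 (ENSG00000207651.1, chr3:188688781-188688866, GENCODE release 29), which lies inside LPP on the same strand and overlaps none of its exons. Of the 2370 mature miRNAs in the sequence table, 0 others carried the seed of hsa-miR-28-3p. hsa-miR-148a-3p and hsa-miR-148b-3p carry the same seed as each other.

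The libraries held 132667 to 407461 reads in the table and 101886 to 332081 after collapsing, with 649 to 800 mature miRNAs detected. Because DROSHA acts on most miRNAs at once, reads were scaled on hairpins that mature without it, and scaled reads below are reads divided by that size factor. The 5 scaling features moved apart from each other by -0.37 (miR-484) to 0.78 (miR-1224) in log2 for belt deletion against wild-type DROSHA. A call means an edgeR adjusted p under 0.05 over the 310 miRNAs that passed the low-count filter. Of the 4 members, 3 passed it, and hsa-miR-151a-5p did not. hsa-miR-28-5p passed it through its wild-type DROSHA libraries alone. In bulk libraries, fewer transfected cells and less miRNA per transfected cell cannot be told apart.

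hsa-miR-28-3p, the main arm of its hairpin, was the one member that was highest with the belt deletion. It had 281, 420 and 374 reads in the belt deletion libraries, 15, 40 and 36 in the m4 libraries, 149, 126 and 96 in the wild-type DROSHA libraries and 14, 9 and 5 in the empty plasmid libraries. In scaled reads it averaged 364 ± 145 with the belt deletion, 33.0 ± 15.4 with m4, 171 ± 59.5 with wild-type DROSHA and 6.70 ± 3.63 with the empty plasmid (SD, n = 3 each). The 4 groups did not overlap in any of the 6 pairs: the lowest belt deletion library stood at 247 scaled reads and the highest wild-type DROSHA library at 227. Such separation was common over all tested miRNAs. Every library lay above every empty plasmid library in 46.5% with the belt deletion, 45.2% with m4 and 46.5% with wild-type DROSHA. All belt deletion libraries lay above those of wild-type DROSHA in 15.2% and above those of m4 in 29.7%. In 33.9%, all m4 libraries lay below those of wild-type DROSHA.

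Against the empty plasmid, hsa-miR-28-3p rose 53.8-fold with the belt deletion (log2 change 5.75, SE 0.48, edgeR adjusted p = 1.27e-16). With m4 the log2 change was 2.29 (SE 0.44, edgeR adjusted p = 1.92e-05). With wild-type DROSHA it rose 25.2-fold (log2 change 4.65, SE 0.46, edgeR adjusted p = 8.28e-14). These 3 comparisons share the empty plasmid libraries. Rises were common there, with 42.9% of tested miRNAs called higher with the belt deletion, 41.0% with m4 and 42.6% with wild-type DROSHA.

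Set directly against wild-type DROSHA, hsa-miR-28-3p was higher with the belt deletion and lower with m4. The belt deletion raised it by 1.10 on the log2 scale (SE 0.38, edgeR adjusted p = 0.0437), the change of rank 17 from the highest among 310. In that comparison 3.23% of miRNAs were called higher and 9.35% lower, while 15.2% had all belt deletion libraries above all wild-type DROSHA libraries and 17.1% had them all below. The call lies close to its threshold. It was lost when belt deletion replicate 2 was left out (log2 change 0.71, edgeR adjusted p = 0.312) and without wild-type DROSHA replicate 3 (0.85, edgeR adjusted p = 0.210). It was also lost without wild-type DROSHA replicate 1 (edgeR adjusted p = 0.121), belt deletion replicate 3 (edgeR adjusted p = 0.0753) or empty plasmid replicate 2 (edgeR adjusted p = 0.0591), with the sign kept each time. With all libraries it was lost in DESeq2 on the same size factors (DESeq2 adjusted p = 0.121) and with scaling on the sum of DROSHA-independent reads (edgeR adjusted p = 0.353).

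With m4, hsa-miR-28-3p fell by 2.37 on the log2 scale against wild-type DROSHA (SE 0.41, edgeR adjusted p = 2.05e-06), where 34.2% of miRNAs were called lower. The belt deletion against m4 gave a log2 change of 3.46 (SE 0.42, edgeR adjusted p = 4.93e-10), where 25.8% were called higher. With total counts these became -1.36 and 2.51, and both calls held. The m4 libraries lay between those of the empty plasmid and of wild-type DROSHA for this arm.

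**Figure D1:**
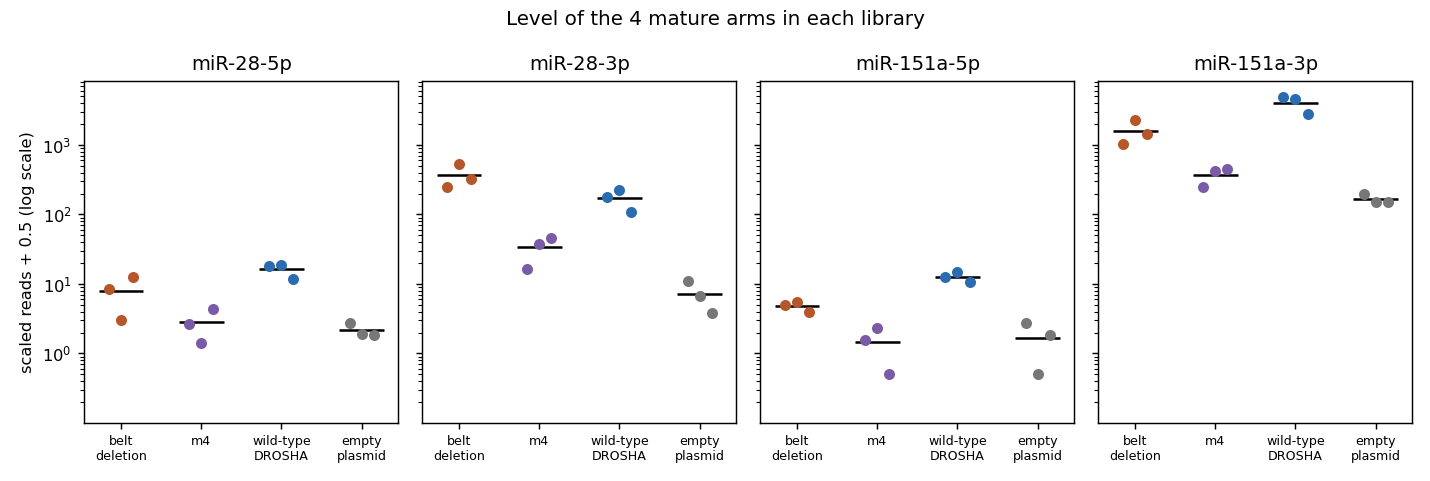
Scaled reads plus 0.5 on a log axis for hsa-miR-28-5p, hsa-miR-28-3p, hsa-miR-151a-5p and hsa-miR-151a-3p, one point for each library and a line at the mean of each group of 3. hsa-miR-28-3p is highest with the belt deletion, at 247 to 527 scaled reads, whereas the other arms are highest with wild-type DROSHA on average.

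hsa-miR-151a-3p, the main arm of mir-151a, was the most abundant member and was highest with wild-type DROSHA. It had 1188, 1804 and 1674 reads in the belt deletion libraries, 229, 452 and 355 with m4, 4176, 2510 and 2442 with wild-type DROSHA and 257, 218 and 226 with the empty plasmid. In scaled reads it averaged 1579 ± 622 with the belt deletion, 373 ± 111 with m4, 4078 ± 1170 with wild-type DROSHA and 165 ± 24.5 with the empty plasmid (SD, n = 3 each). No pair of groups overlapped, and the highest belt deletion library, at 2262 scaled reads, lay below the lowest wild-type DROSHA library, at 2752. Over all tested miRNAs, 17.1% had every belt deletion library and 33.9% every m4 library below every wild-type DROSHA library, and 46.5% had every wild-type DROSHA library above every empty plasmid library. Every belt deletion library lay above every empty plasmid library in 46.5% and above every m4 library in 29.7%. Every m4 library lay above every empty plasmid library in 45.2%.

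The belt deletion lowered hsa-miR-151a-3p 2.58-fold against wild-type DROSHA (log2 change -1.37, SE 0.33, edgeR adjusted p = 0.00118), the change of rank 27 from the lowest among 310. m4 lowered it 10.9-fold (log2 change -3.45, SE 0.36, edgeR adjusted p = 4.60e-13). The belt deletion stood above m4 by 2.08 on the log2 scale (SE 0.34, edgeR adjusted p = 4.46e-07). All 3 calls held whichever library was left out. With total counts hsa-miR-151a-3p changed by -2.42 with m4 against wild-type DROSHA and by 1.10 with the belt deletion against m4, and both calls held.

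Against the empty plasmid, hsa-miR-151a-3p rose 9.56-fold with the belt deletion (log2 change 3.26, SE 0.36, edgeR adjusted p = 5.33e-13) and 24.7-fold with wild-type DROSHA (log2 change 4.63, SE 0.38, edgeR adjusted p = 1.91e-18). With m4 its log2 change was 1.17 (SE 0.34, edgeR adjusted p = 0.00257), a call that was lost with TMM scaling (log2 change 0.49, edgeR adjusted p = 0.120). The rise of hsa-miR-151a-3p and that of hsa-miR-28-3p with wild-type DROSHA were close in size, at 4.63 and 4.65 in log2.

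hsa-miR-28-5p was a minor arm with few reads. It had 9, 2 and 14 reads in the belt deletion libraries, 2, 1 and 3 with m4, 15, 10 and 10 with wild-type DROSHA and 3, 2 and 2 with the empty plasmid. It averaged 7.46 ± 4.74 scaled reads with the belt deletion, 2.30 ± 1.46 with m4, 15.7 ± 3.84 with wild-type DROSHA and 1.66 ± 0.519 with the empty plasmid (SD, n = 3 each). The belt deletion libraries overlapped those of wild-type DROSHA and of m4, and the m4 libraries overlapped those of the empty plasmid.

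Against the empty plasmid hsa-miR-28-5p rose with the belt deletion (log2 change 2.16, SE 0.74, edgeR adjusted p = 0.0111) and with wild-type DROSHA (3.15, SE 0.71, edgeR adjusted p = 7.74e-05). With m4 its change was 0.38 and did not pass the test (SE 0.92, edgeR adjusted p = 0.792). The belt deletion call was lost without belt deletion replicate 3 (1.66, edgeR adjusted p = 0.129) and under all scalings over the whole table. Against wild-type DROSHA, hsa-miR-28-5p fell by 2.77 on the log2 scale with m4 (edgeR adjusted p = 0.00127). With the belt deletion against wild-type DROSHA its change was -0.99 and did not pass (edgeR adjusted p = 0.290), nor did the belt deletion against m4, at 1.78 (edgeR adjusted p = 0.0831). The depth of these libraries leaves a few reads per library to carry this arm. It passed the low-count filter through its wild-type DROSHA libraries alone, so higher levels there were favoured by the filter. With no filter on low counts, its rise with wild-type DROSHA (3.15, edgeR adjusted p = 0.000114) kept its call. Its fall with m4 against wild-type DROSHA (-2.77, edgeR adjusted p = 0.00301) also kept its call there.

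hsa-miR-151a-5p, the minor arm of mir-151a, was rarer still. It had 5, 4 and 4 reads in the belt deletion libraries, 1, 2 and 0 with m4, 10, 8 and 9 with wild-type DROSHA and 3, 0 and 2 with the empty plasmid. The belt deletion libraries lay below all wild-type DROSHA libraries and above those of m4 and of the empty plasmid, and m4 and empty plasmid libraries overlapped. Such separation was found in 17.1% of tested miRNAs below wild-type DROSHA, 29.7% above m4 and 46.5% above the empty plasmid. hsa-miR-151a-5p was kept when the low-count filter used scaled library sizes, an alternative chosen after seeing the data that tested 318 miRNAs. It was kept through its wild-type DROSHA libraries alone, so higher levels in them were favoured by the filter. There it was called higher with wild-type DROSHA than with the empty plasmid (log2 change 3.22, SE 0.83, edgeR adjusted p = 0.000559) and lower with m4 than with wild-type DROSHA (-3.36, SE 0.92, edgeR adjusted p = 0.00192). The belt deletion against wild-type DROSHA gave -1.48 and did not pass (SE 0.73, edgeR adjusted p = 0.200). A close copy, miR-151b, was listed with 13 reads in all, and the counting may have divided reads between the 2 names.

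MIR151A (ENSG00000254324.3, 90 bp, minus strand of GRCh38 chromosome 8 from 140732564 to 140732653, GENCODE release 29) lies inside PTK2 on the same strand and overlaps none of its exons. Of the 3 tested arms, 3 rose with the belt deletion against the empty plasmid (42.9% of all miRNAs called higher), 2 with m4 (41.0%) and 3 with wild-type DROSHA (42.6%), and none fell by the edgeR test. Against wild-type DROSHA, 1 rose (3.23% called higher) and 1 fell (9.35% called lower) with the belt deletion, and 3 fell with m4 (34.2% called lower). Against m4, 2 rose with the belt deletion (25.8% called higher).

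**Figure D2:**
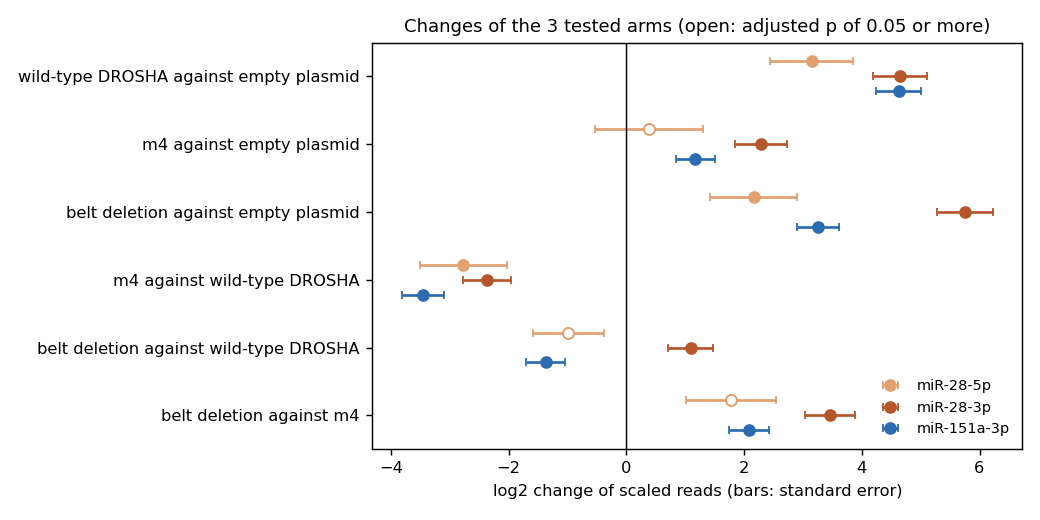
Log2 changes of the 3 tested arms (horizontal axis, with the standard error as bars) in the 6 comparisons of groups (vertical axis), where filled points have an edgeR adjusted p under 0.05. For belt deletion against wild-type DROSHA the points of hsa-miR-28-3p (1.10) and hsa-miR-151a-3p (-1.37) lie on opposite sides of 0.

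The balance of both hairpins was also read within each library, as reads of hsa-miR-151a-3p for each read of hsa-miR-28-3p, a ratio that needs no scaling between libraries. The ratio was 4.22, 4.29 and 4.47 in the belt deletion libraries, 14.8, 11.2 and 9.74 with m4, 27.9, 19.8 and 25.3 with wild-type DROSHA and 17.8, 23.0 and 41.2 with the empty plasmid. Ligation and reverse transcription can differ between sequences, so the ratio is compared between groups and is not read as a ratio of molecules. All 3 belt deletion libraries lay within a narrow range below every other library, the m4 libraries lay above them, and wild-type DROSHA and empty plasmid libraries overlapped. The share of other miRNA pairs that separate in this way was not counted.

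The geometric mean of the ratio was 4.33 with the belt deletion, 11.7 with m4, 24.1 with wild-type DROSHA and 25.6 with the empty plasmid (n = 3 each). The belt deletion lay 5.57-fold below wild-type DROSHA (log2 difference -2.48) and -1.44 in log2 from m4, and m4 lay -1.04 from wild-type DROSHA. Against the empty plasmid the log2 differences were -2.57 for the belt deletion, -1.13 for m4 and -0.09 for wild-type DROSHA. Each comparison of 3 against 3 libraries has a smallest possible two-sided exact permutation p of 0.1, which all pairs gave except wild-type DROSHA against the empty plasmid (exact permutation p = 0.9). After Benjamini-Hochberg adjustment over the 12 ratio comparisons these became 0.12 and 0.9, so no pair could pass.

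A test of all 4 groups at once was added after the values had been seen. Of the 15400 ways to divide 12 libraries into 4 groups of 3, 12 separated the ratio at least as far (exact permutation p = 0.000779, adjusted over 4 measures p = 0.00156). The same test was not run on other pairs of miRNAs. The ratio over both arms was also lowest with the belt deletion and next lowest with m4, while wild-type DROSHA (22.1) lay above the empty plasmid (20.5). Its belt deletion to wild-type DROSHA log2 difference was -2.38, with a 4-group exact permutation p of 0.000714. For the main arms, leaving out any 1 library kept the belt deletion to wild-type DROSHA difference between -2.62 and -2.37. The empty plasmid ratios rest on 5 to 14 reads of hsa-miR-28-3p.

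**Figure D3:**
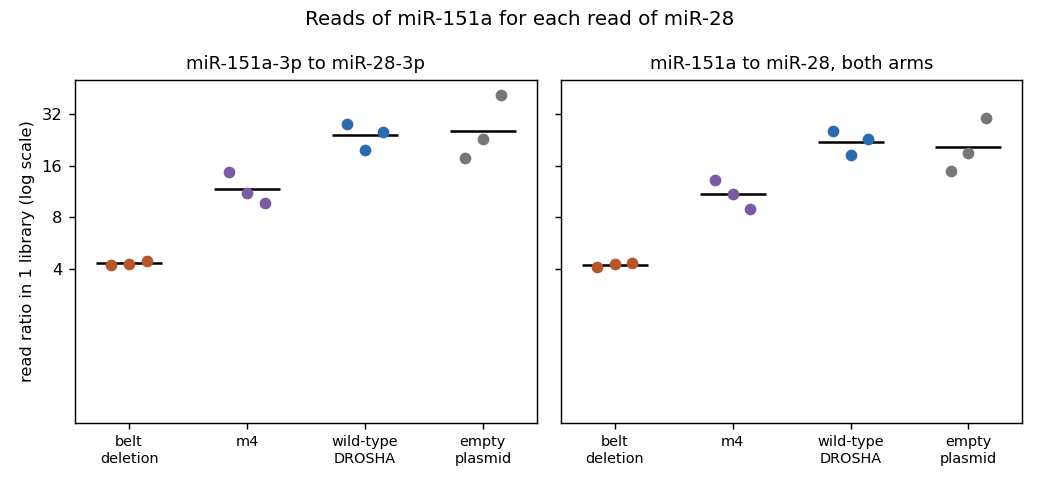
Reads of miR-151a for each read of miR-28 in each library on a log axis, for the 3p arms (left) and for both arms summed (right), with a line at the geometric mean of each group of 3. The belt deletion libraries sit together at 4.22 to 4.47 for the 3p arms, below all m4, wild-type DROSHA and empty plasmid libraries. The share of other miRNA pairs that separate in this way was not counted.

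The arms of each hairpin were then compared within libraries, as the share of 5p reads among the reads of both arms. For mir-28 the share was 3.10%, 0.474% and 3.61% in the belt deletion libraries, 11.8%, 2.44% and 7.69% with m4, 9.15%, 7.35% and 9.43% with wild-type DROSHA and 17.6%, 18.2% and 28.6% with the empty plasmid. The 3p arm dominated in every library, the belt deletion libraries lay below those of wild-type DROSHA and of the empty plasmid, and m4 overlapped the belt deletion and wild-type DROSHA. How many other hairpins separated in this way was not counted. The empty plasmid shares rest on 3, 2 and 2 reads of the 5p arm. Over the summed reads of a group the share was 2.27% with the belt deletion (exact Clopper-Pearson 95% interval 1.48 to 3.34%, 25 of 1100 reads) and 8.62% with wild-type DROSHA (6.08 to 11.8%, 35 of 406 reads). With m4 it was 6.19% (2.30 to 13.0%, 6 of 97 reads) and with the empty plasmid 7 of 35 reads were 5p reads (8.44 to 36.9%). These intervals cover counting error only and leave out differences between the libraries of a group. The intervals of belt deletion replicates 2 (0.0574 to 1.70%) and 3 (1.99 to 5.98%) did not overlap. Reads without molecular identifiers are also not independent molecules.

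The 5p to 3p ratio of mir-28 fell by 2.04 on the log2 scale with the belt deletion against wild-type DROSHA (SE 0.60, edgeR adjusted p = 0.00843, over 41 hairpins with both arms tested). In that comparison 14.6% of hairpins were called in either direction, and mir-28 had rank 4 from the lowest. The call was lost without belt deletion replicate 2, the library with the lowest share (-1.43, edgeR adjusted p = 0.113), and without wild-type DROSHA replicate 3 (-1.98, edgeR adjusted p = 0.0551). The sign was the same under all 17 alternatives. mir-28 entered this test because hsa-miR-28-5p passed the low-count filter, which it did through its wild-type DROSHA libraries alone. A lower 5p to 3p ratio against wild-type DROSHA was therefore favoured by the filter. Without a filter on arms, an alternative chosen after seeing the data, the call was lost (-2.05, edgeR adjusted p = 0.0744).

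Against the empty plasmid the ratio fell by 3.51 with the belt deletion (SE 0.96, edgeR adjusted p = 0.00340, 24.4% of hairpins called), the lowest change of the 41. It did not pass with m4 (-1.89, edgeR adjusted p = 0.358, 12.2% called) or with wild-type DROSHA (-1.47, edgeR adjusted p = 0.262, 22.0% called). Nor did m4 against wild-type DROSHA pass (-0.42, edgeR adjusted p = 0.811, 4.88% called), or the belt deletion against m4 (-1.62, edgeR adjusted p = 0.245, 14.6% called). The exact permutation test over 4 groups, added after seeing the values, gave p = 0.00143 for the mir-28 ratio (adjusted 0.0019).

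For mir-151a the 5p share averaged 0.293 ± 0.110% with the belt deletion, 0.292 ± 0.253% with m4, 0.308 ± 0.0647% with wild-type DROSHA and 0.677 ± 0.602% with the empty plasmid (SD, n = 3 each). The groups overlapped in all pairs, and the 5p arm made up at most 1.15% of the reads of a library. No 5p read was counted in m4 replicate 3 (0 of 355 reads, which by a limit of 3 reads allows a share of up to 0.845%, with an exact two-sided 95% upper bound of 1.03%) or in empty plasmid replicate 2 (0 of 218 reads, up to 1.38% by 3 reads and 1.68% by the exact bound). The exact permutation test over 4 groups gave p = 0.471 for the mir-151a ratio. With the low-count filter on scaled library sizes, its log2 change with the belt deletion against wild-type DROSHA was -0.08 (SE 0.51, edgeR adjusted p = 0.965). That the ratio moved for mir-28 and not for mir-151a was not itself tested. Among the 41 hairpins tested, 6 had under 10% of their reads on the 5p arm, 1 had under 1% and 18 had over 50%.

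**Figure D4:**
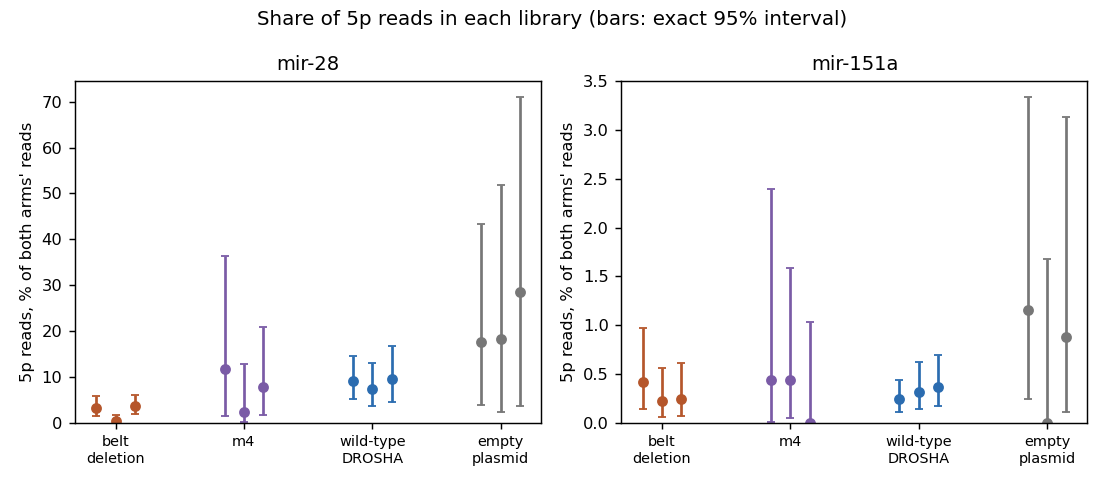
Share of 5p reads (% of both arms' reads) of mir-28 (left) and mir-151a (right) in each library, with exact 95% binomial intervals as bars; the vertical axes differ. For mir-28 the belt deletion libraries, at 0.474 to 3.61%, lie below the wild-type DROSHA libraries at 7.35 to 9.43%, and for mir-151a the groups overlap. How many other hairpins separate in this way was not counted.

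Other hairpins annotated as LINE2-derived gave few reads. Of 9 on a list from general knowledge, 6 were in the table with 10 mature names of 1 to 132 reads in all, and 2 names passed the filter, hsa-miR-374a-3p and hsa-miR-374a-5p, both arms of 1 hairpin. hsa-miR-374a-3p averaged 15.3 ± 3.77 scaled reads with the belt deletion, 8.85 ± 5.94 with m4, 25.2 ± 15.6 with wild-type DROSHA and 1.99 ± 2.86 with the empty plasmid (SD, n = 3 each). hsa-miR-374a-5p averaged 6.53 ± 3.08 with the belt deletion, 8.88 ± 3.43 with m4, 11.2 ± 4.36 with wild-type DROSHA and 1.82 ± 1.34 with the empty plasmid. Both were low with the empty plasmid and spread widely within groups. Against wild-type DROSHA, 0 of these 2 changed with the belt deletion, where the changes were -0.65 for hsa-miR-374a-3p (edgeR adjusted p = 0.471) and -0.77 for hsa-miR-374a-5p (edgeR adjusted p = 0.466). Their median was -0.71, beside 0.04 over all 310 miRNAs, of which 3.23% were called higher and 9.35% lower. With m4, where 3.55% of all miRNAs were called higher and 34.2% lower, 0 rose and 1 fell, hsa-miR-374a-3p (-1.50, edgeR adjusted p = 0.0397). That call was lost without wild-type DROSHA replicate 2 (-0.93), m4 replicates 1 (-1.44) or 2 (-1.09), or belt deletion replicates 2 (-1.50) or 3 (-1.49). It was also lost with TMM (-1.28), DESeq2 size factors (-1.32), total counts (-0.44), the sum of DROSHA-independent reads (-1.30), no filter (-1.50), summed hairpin lines (-1.50) and DESeq2 with its own (-1.34) or the same size factors (-1.51). Against the empty plasmid 1 rose with the belt deletion, 2 with m4 and 2 with wild-type DROSHA, beside 42.9%, 41.0% and 42.6% of all miRNAs called higher. Belt deletion against m4 gave 0 calls (0.85 for hsa-miR-374a-3p, edgeR adjusted p = 0.367, and -0.47 for hsa-miR-374a-5p, edgeR adjusted p = 0.712), beside 25.8% of all miRNAs called higher and 1.29% lower. The rise of hsa-miR-374a-3p with m4 did not pass without empty plasmid replicates 2 (1.71) or 3 (1.51) or m4 replicate 3 (1.47), and that of hsa-miR-374a-5p did not pass without empty plasmid replicate 1 (1.82) or m4 replicate 3 (1.82). For hsa-miR-374a-3p it was also lost with TMM (1.44), DESeq2 size factors (1.64) and DESeq2 with its own (1.69) or the same size factors (2.17), and for hsa-miR-374a-5p with TMM (1.52) and DESeq2 with its own size factors (1.75). The rise of hsa-miR-374a-5p with wild-type DROSHA was lost in DESeq2 with its own size factors (1.90). miR-708, a seed relative of miR-28-5p, and miR-3139 were looked for but were not among the collapsed mature miRNAs.

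The miRNAs closest to each main arm in pattern were named as a description, since the same 12 libraries that give their levels chose them. Likeness was the Pearson correlation of log2(scaled reads + 0.5) over the 12 libraries, among 98 miRNAs with a mean of at least 100 scaled reads in their highest group; the points share their libraries and size factors, and most of these miRNAs are low with the empty plasmid. hsa-miR-28-3p was closest to miR-100-5p (r = 0.979), miR-148a-3p (0.975), miR-182-5p (0.972), miR-27b-3p (0.970) and miR-30e-3p (0.968). The ratio of belt deletion to wild-type DROSHA means ran from 1.04 to 2.29 among these 5. hsa-miR-151a-3p was closest to miR-93-5p (0.989), miR-99b-3p (0.989), miR-221-3p (0.982), miR-148b-3p (0.979) and miR-221-5p (0.974), with ratios from 0.270 to 0.504. miR-93-5p, miR-99b-3p and miR-148b-3p reached the minimum through wild-type DROSHA alone, so a low ratio was built into their choice. Between themselves, hsa-miR-28-3p and hsa-miR-151a-3p had r = 0.888. The 5 closest to hsa-miR-28-3p also had r of 0.847 to 0.929 with hsa-miR-151a-3p. Those closest to hsa-miR-151a-3p had r of 0.855 to 0.921 with hsa-miR-28-3p, so the sets are not distinct patterns.

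The pair printed above with one seed had 1 name in each set. hsa-miR-148a-3p averaged 3896 ± 985 scaled reads with the belt deletion and 2170 ± 510 with wild-type DROSHA (SD, n = 3 each). hsa-miR-148b-3p averaged 72.0 ± 23.5 with the belt deletion and 214 ± 29.4 with wild-type DROSHA. These values took part in choosing both names, and hsa-miR-148b-3p reached the minimum of 100 scaled reads through its wild-type DROSHA libraries, so they are a description with no test.

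**Figure D5:**
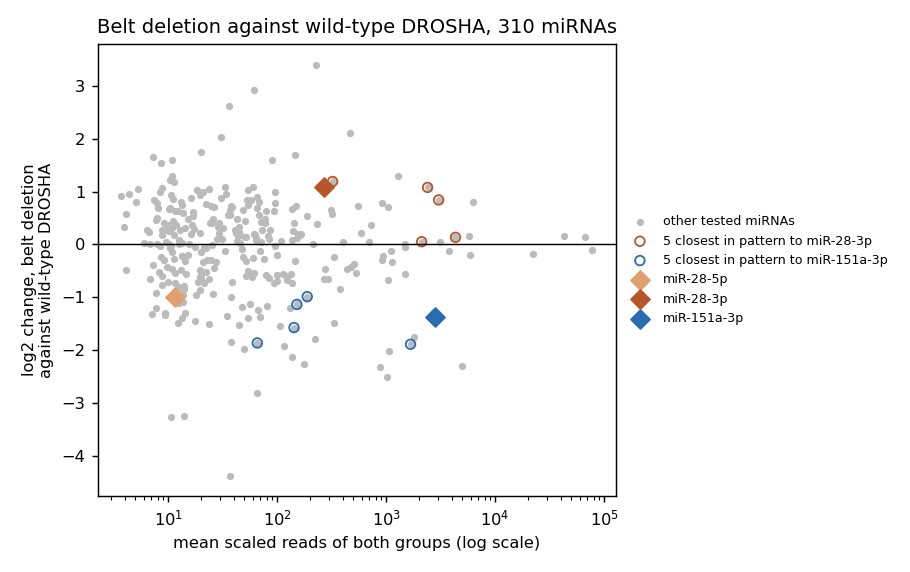
Log2 change, belt deletion against wild-type DROSHA (vertical axis), against the mean scaled reads of both groups (log axis) for the 310 tested miRNAs, with the 3 tested members as diamonds and the 5 miRNAs closest in pattern to each main arm as rings. The rings were chosen on the same libraries and describe the pattern; hsa-miR-28-3p lies at 1.10 and hsa-miR-151a-3p at -1.37.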

How the data were processed

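The libraries were made with a NEBNext kit, per the labels' protocols, from 10 µg of TRIzol-extracted RNA, of which the 19 to 24 nt range was cut from a 15% gel. The authors deposited raw read counts, 1 line for each mature arm of a hairpin. The submitters' processing notes name cutadapt, Bowtie2 and hg38; the counter and its settings are not given in the sources used here. Blank cells, 7220 of 16908 (42.7%), were read as 0. Where a mature name stood on several lines, the line richest in reads was kept, and 9 pairs of names were merged because their reads differed by no more than 5 reads or 5%.

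The size factor of a library was the median of its ratios over 5 DROSHA-independent features (miR-320 summed over its copies, miR-484, miR-1224, miR-1226, miR-877), each with 20 or more reads throughout. Levels were tested in R 4.3.3 with edgeR 4.0.16 (robust quasi-likelihood), all 12 libraries in one model of 4 groups with no covariate, and adjusted by Benjamini-Hochberg over the 310 miRNAs that filterByExpr kept. A standard error is the absolute log2 change over the root of its F value. The low-count filter was first run on scaled library sizes, which kept 318 miRNAs and all 4 members; it was set to the table's own totals after those results had been seen, and the first version is given as an alternative. Arms were tested with edgeR on the counts of both arms, with a term for each library and an interaction of arm and group. Ratios of miR-151a to miR-28 used a pseudocount of 0.5 reads and exact permutation tests over libraries. The fits were tested on simulated data. A first version of that test did not pass. The level fit was then run with fitted dispersions, and its recovery was judged relative to the unchanged miRNAs. The arm fit was simulated with a preset spread, not one fitted to these data, and its recovery was judged on the absolute change. DESeq2 1.42.0 and limma 3.58.1 served as alternatives. The members, the LINE2 list and the tests were chosen with earlier results of these data known. Named miRNAs are the members, the listed LINE2 miRNAs and relatives that pass the filter, and the 5 closest in pattern to each main arm. No pair of libraries of a group agreed within sampling noise.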

Additional observations from a re-analysis of the deposited data

How the results depend on the processing

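Over 36 results on the members, 704 values under alternatives counted as the same in 678 cases. Apart from the ratios of miR-151a to miR-28, 20 lost the call, 1 gained it and 5 changed sign. Those ratios have no call and were counted as the same within 1 SD of the reported value, whatever their sign, which all were. For wild-type DROSHA against the empty plasmid their sign did change. With 1 library left out, the log2 difference ran from -0.35 to 0.255 for the 3p arms and from -0.12 to 0.39 for both arms. The call of hsa-miR-28-3p for belt deletion against wild-type DROSHA was kept under 15 of 25 alternatives with adjusted p from 0.00831 to 0.353; it was lost with the sum of DROSHA-independent reads (0.91), with no filter on low counts (1.10), with DESeq2 on the same size factors (1.10) and with hairpin lines summed (1.09). Leaving out 1 library put it at 0.71 to 1.34. With the replicate block it was also lost (1.08, edgeR adjusted p = 0.0516), and the block changed no other call of a member; the numbers share no stated origin, and same-numbered libraries had r of -0.24 to 0.14 in their deviations, with 0 of 12 libraries matching best to their own number. The arm ratio of mir-28 for belt deletion against wild-type DROSHA lost its call without a filter on arms, chosen after seeing the data (-2.05, edgeR adjusted p = 0.0744), and lay at -2.56 to -1.43 with 1 library left out. For m4 against wild-type DROSHA that ratio lay at -0.77 to 0.13, and its sign changed without m4 replicate 2. hsa-miR-28-5p for belt deletion against the empty plasmid lost its call with TMM (1.51), DESeq2 size factors (1.61), total counts (1.43) and DESeq2 with its own (1.66) or the same size factors (2.22), and ranged from 1.66 to 2.52 with 1 library left out. For m4 against the empty plasmid, hsa-miR-28-5p turned to -0.25 with TMM, -0.063 with DESeq2 size factors and -0.052 in DESeq2, and ranged from -0.14 to 0.82 with 1 library left out, the sign changing without m4 replicate 3. For belt deletion against m4 it ranged from 1.26 to 2.29 with 1 library left out, and was called without belt deletion replicate 2 (2.11, edgeR adjusted p = 0.0407). With total counts hsa-miR-374a-5p turned to 0.69 for m4 against wild-type DROSHA and hsa-miR-374a-3p to -0.17 for belt deletion against m4. TMM lowered the median of all miRNAs against the empty plasmid by 0.65 to 0.86 in log2, and the call of hsa-miR-151a-3p with m4 (0.49) was lost there. Total counts moved the median for m4 against wild-type DROSHA by 1.05. With TMM, the rises against the empty plasmid came to 4.96 for hsa-miR-28-3p and 2.46 for hsa-miR-151a-3p with the belt deletion, and 3.75 and 3.73 with wild-type DROSHA; with m4 hsa-miR-28-3p came to 1.58. hsa-miR-28-5p came to 2.31 with wild-type DROSHA under TMM and to -1.78 with m4 against wild-type DROSHA under total counts. These calls held.

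The count of miRNAs called lower with wild-type DROSHA than with the empty plasmid was 2; it became 93 with TMM, 68 with DESeq2 size factors, 71 with total counts, 45 in DESeq2 with its own and 1 with the same size factors, 1 with the sum of DROSHA-independent reads, and 1 to 10 with 1 library left out (10 without wild-type DROSHA replicate 1, 1 without wild-type DROSHA replicate 2). With m4 against the empty plasmid, 127 higher became 84 with TMM, and 3 lower became 19 with TMM, 12 with DESeq2 size factors, 11 in DESeq2, 1 with the sum and 2 to 7 with 1 library left out (7 without m4 replicate 2). With the belt deletion against the empty plasmid, 1 lower became 42 with TMM, 34 with DESeq2 size factors, 33 with total counts, 21 in DESeq2, 0 with the sum (edgeR, 0 at an unadjusted p under 0.05), 2 without miR-320, 4 with the 6 libraries alone and 0 to 3 with 1 library left out (0 without empty plasmid replicate 3 by edgeR, 3 there at an unadjusted p under 0.05, and 3 without m4 replicate 1). With m4 against wild-type DROSHA, 106 lower became 60 with total counts, and 11 higher became 43 with TMM, 39 with DESeq2 size factors, 133 with total counts, 27 in DESeq2, 6 with the sum, 7 without miR-320, 6 without the filter, 7 with the 6 libraries alone and 2 to 26 with 1 library left out (2 without m4 replicate 3, 26 without m4 replicate 1). With the belt deletion against wild-type DROSHA, 10 higher and 29 lower became 26 and 29 with TMM and 17 and 32 with DESeq2 size factors, 5 were higher with the sum, and 6 to 11 were higher with 1 library left out (6 without wild-type DROSHA replicate 3). With the belt deletion against m4, 80 higher became 47 with total counts and 53 with the sum, and 4 lower became 7 with TMM, 9 with DESeq2 size factors, 121 with total counts, 10 in DESeq2 and 3 to 10 with 1 library left out (10 without belt deletion replicate 2). Hairpins with a called arm ratio numbered 6 for belt deletion against m4, 2 by limma, 2 without a filter on arms and 1 to 9 with 1 library left out. For m4 against the empty plasmid they numbered 5, with 3 at 20 reads or more in every library, 3 without a filter and 2 to 6 with 1 library left out. For belt deletion against the empty plasmid 10 became 6 at 20 reads or more. For wild-type DROSHA against the empty plasmid 9 became 5 without hairpins with shared reads and 5 to 13 with 1 library left out. For m4 against wild-type DROSHA 2 became 1 without a filter, and for belt deletion against wild-type DROSHA 6 became 3 to 8 with 1 library left out. Some of these settings used smaller sets of libraries, hairpins or reads. Why the counts moved was not tested.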
